A study of Homo sapiens with 2 samples.

Results

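The 10 noncoding genes followed here were compared between 2 libraries of A549 cells, a human lung adenocarcinoma line, 1 labelled shRNA-SOX2 (below, the SOX2-labelled library) and 1 labelled shRNA-Con (below, the control library). They were the rows of the deposited gene table whose symbol was GAS5, SNHG1, SNHG5, SNHG7, SNHG8 or SNHG12, all hosts of small nucleolar RNAs (snoRNAs), or MALAT1, NEAT1, MEG3 or SNAR-E, other noncoding genes that hold no snoRNA gene. All 10 were found among the 13137 genes listed. They were chosen by their tag counts in these same libraries, the measure described below, so their differences are given as a description with no test.

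Each library came from polyclonal cells that carried a lentiviral, doxycycline-inducible H1TetO promoter in front of a short hairpin RNA and had been selected with puromycin. The hairpin was 1 sequence against SOX2, a transcription factor of stem cells, for the SOX2-labelled library and a scrambled sequence for the control library. Both cell populations, the control included, received doxycycline for 4 days. Digital gene expression counts sequence tags from oligo(dT)-selected RNA, so that a gene's count follows the number of its polyadenylated molecules rather than its length. With 1 library a condition, no difference has a replicate check, every interval covers counting error only, and a test compares these libraries and not the conditions.

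A snoRNA host gene is transcribed as 1 precursor whose introns carry snoRNAs. The C/D box snoRNAs (SNORD) guide methylation of ribosomal RNA and the H/ACA box snoRNAs (SNORA) guide its pseudouridylation. The spliced host RNA left behind often begins with a terminal oligopyrimidine (TOP) tract, a C followed by an unbroken run of C and T, as the messenger RNAs of ribosomal proteins do, and it is commonly degraded by nonsense-mediated decay. NEAT1 and MALAT1 are long nuclear RNAs transcribed from neighbouring genes on chromosome 11. NEAT1 is the scaffold of paraspeckles, and MALAT1 accumulates at nuclear speckles, where splicing factors are stored. The mature end of MALAT1 and of the long NEAT1 isoform is not the ordinary poly(A) tail that oligo(dT) selection relies on. MEG3 is expressed from the maternal copy of the imprinted DLK1-MEG3 region, and SNAR-E belongs to a family of short structured RNAs.

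The host genes differed in their snoRNAs, by the RefSeq annotation of GRCh38.p14. GAS5 (Entrez Gene 60674, chr1:173863901-173869045) held 11 snoRNA genes, among them SNORD44, SNORD47 and SNORD74 to SNORD81. SNHG1 (23642, chr11:62851978-62855885) held 9, among them SNORD22 and SNORD25 to SNORD31. SNHG12 (85028, chr1:28578538-28582983) held 4, of which SNORA16A, SNORA44 and SNORA61 are of the H/ACA class. SNHG5 (387066, chr6:85677007-85678733) held the C/D pair SNORD50A and SNORD50B, and SNHG7 (84973, chr9:136724594-136728184) the H/ACA pair SNORA17A and SNORA17B. SNHG8 (100093630, chr4:118278762-118279823) held 1, SNORA24. The snoRNAs themselves are short and not polyadenylated, and the tags described are those of the host gene rows.

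The starts of the host RNAs are printed because a TOP tract at the first base is a feature they can share that played no part in how they were chosen. In the GENCODE 29 annotation of GRCh38, transcripts with a C and at least 4 further C or T bases at the start were found for GAS5 (6 of its 29 transcripts), SNHG1 (1 of 25), SNHG5 (3 of 23), SNHG8 (1 of 5) and SNHG12 (4 of 17). Such a start stood on 2.41% of the 206694 transcripts annotated, and on 4.00% of those of SNHG1. The share is per transcript, so a gene with more annotated transcripts has more occasions to hold 1 such start. Each sequence below is the first 30 bases of the RNA, 5′ to 3′, with the uninterrupted C and T run from the first base in capitals.
GAS5: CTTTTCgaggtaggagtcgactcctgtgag
SNHG1: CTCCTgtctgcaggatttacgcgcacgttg
SNHG5: CTTTTacgtcggccttcgcgagcgtctggg
SNHG8: CTTTCacattcgggaagcgtcgggattagg
SNHG12: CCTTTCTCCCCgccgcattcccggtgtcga
These starts lie at chr1 base 173867989, chr11 base 62855479, chr6 base 85678733, chr4 base 118278758 and chr1 base 28581873, on the minus strand except for SNHG8. The longest run was the 11 bases of SNHG12.

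No annotated transcript of SNHG7 (0 of 4), MALAT1 (0 of 17), NEAT1 (0 of 8) or MEG3 (0 of 48) began in this way, and SNAR-E was not matched in GENCODE 29. The windows around the RefSeq starts of SNHG7 and of the other noncoding genes with an entry are shown for contrast, 10 bases before the start and 20 from it, with the C and T run from the start in capitals.
SNHG7: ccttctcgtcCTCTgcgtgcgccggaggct
MALAT1: ctctcccctcCgcagcctgcagcccgagac
MEG3: ccacccagccagcccctagcgcagacggcg
They lie at chr9:136728165-136728194 on the minus strand, chr11:65497728-65497757 on the plus strand and chr14:100826098-100826127 on the plus strand. SNHG7 had a run of 4 bases, 1 short of the definition used, MALAT1 of 1 base, and MEG3 of 0. At the RefSeq starts, 2 of the 6 host genes (SNHG5 and SNHG12) met the definition, against 5.35% of the 10533 listed genes with a RefSeq promoter and 11 of 17 ribosomal protein genes with a snoRNA gene inside. The host genes therefore vary in this feature among themselves and with the annotated start that is read.

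The libraries held 2093816 gene tags (SOX2-labelled) and 2304184 gene tags (control). SOX2 had 16 tags in the control library and 23 in the SOX2-labelled library, a ratio of 1.58 (95% interval 0.800 to 3.20), so the targeted gene had no fewer tags in the library named for it, and the labels are used as names only. The table's columns were tied to the labels by initials alone, and a swap of the columns would invert every direction given. Of the epithelial markers, KRT8 (7702 and 12729 tags) and KRT18 (10318 and 7887) were abundant in both libraries, KRT19 had 35 and 127 tags, and EPCAM had 8 and 4, the control library always first. The median log2 difference of the 10045 genes with at least 20 tags was −0.10. In bulk RNA, fewer cells of a type and less RNA per cell cannot be told apart.

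GAS5, a host RNA that accumulates when growth stops, had the most tags of the host genes. It gave 5313 tags in the control library (2306 CPM, tags per 1000000 gene tags) and 1317 in the SOX2-labelled library (629.0 CPM). The ratio of the SOX2-labelled library to the control library was 0.273 (0.257 to 0.290), or −1.87 on the log2 scale. SNHG1, host of a run of C/D snoRNAs, had 483 and 107 tags. Its ratio of 0.244 (0.196 to 0.301), or −2.04 on the log2 scale, was the lowest of the 10 genes.

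SNHG8 and SNHG12, hosts chiefly of H/ACA snoRNAs, had fewer molecules and similar ratios. SNHG8 had 136 tags in the control library and 32 in the SOX2-labelled library, a ratio of 0.259 (0.170 to 0.383). SNHG12 had 194 and 53 tags, a ratio of 0.301 (0.218 to 0.409). SNHG7 had 193 and 53 tags, a ratio of 0.302 (0.219 to 0.411), and so stood beside SNHG12 in both libraries.

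SNHG5 was the exception among the hosts. It had 276 tags in the control library and 201 in the SOX2-labelled library, a ratio of 0.801 (0.665 to 0.965), or −0.32 on the log2 scale. Its log2 difference was at percentile 39.1 of the genes with at least 20 tags, whereas the other 5 host genes lay between percentile 1.71 and percentile 3.25. The intervals of the ratios overlapped in all 10 pairs among those 5 genes, whose order cannot be set at this depth. In each of the 5 pairs that included SNHG5 they did not overlap.

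**Figure D1:**
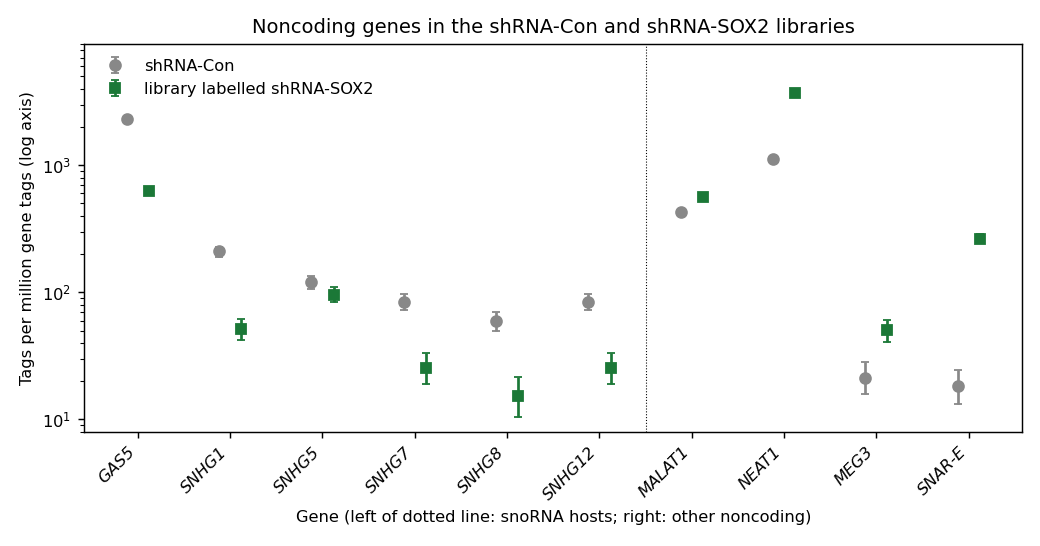
Level in CPM (log axis) of the 10 noncoding genes in the control library (grey circles) and the SOX2-labelled library (green squares), with 95% counting intervals and snoRNA hosts to the left of the dotted line. GAS5 stood at 2306 and 629.0 CPM, NEAT1 at 1114 and 3722, and SNHG5 was the host whose values lay closest together.

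Of the 6 hosts, 5 (SNHG5 excepted) had at least 3-fold fewer tags in the SOX2-labelled library. Among all genes with at least 20 tags, 13.0% were at least 2-fold lower and 4.14% at least 3-fold lower. Summed over the 6 hosts, 6595 tags stood against 1763, or 0.286% and 0.0842% of the gene tags, a ratio of 0.294 (0.279 to 0.310). GAS5 gave 80.6% of these tags in the control library and 74.7% in the SOX2-labelled library. Without GAS5 the sums were 1282 and 446 and the ratio was 0.383 (0.343 to 0.427). The median log2 difference over the 6 hosts was −1.80.

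The other 4 noncoding genes all had more tags in the SOX2-labelled library. NEAT1 (283131, chr11:65422798-65445540) had 2567 tags in the control library and 7793 in the SOX2-labelled library, or 1114 and 3722 CPM. Its ratio was 3.34 (3.19 to 3.49), or 1.74 on the log2 scale, at percentile 97.0. In shRNA-Con, GAS5 had more tags than the other 9 genes together, and in the SOX2-labelled library NEAT1 had the most. MALAT1 (378938, chr11:65497738-65506516), 52198 bases from NEAT1, had 987 and 1185 tags. Its ratio of 1.32 (1.21 to 1.44) was smaller than that of its neighbour, with intervals that did not overlap.

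MEG3 (55384, chr14:100826108-100861026), a growth-restraining RNA of the imprinted region, was scarce, with 49 tags in the control library and 105 in the SOX2-labelled library. Its ratio was 2.36 (1.66 to 3.38), and its interval was the one that overlapped that of NEAT1. The single other listed gene of the DLK1-MEG3 region, DIO3OS, had 2 and 3 tags, at or under the floor of 3 tags.

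SNAR-E (100170220, chr19:46830585-46830704), a 120-base RNA, had 42 tags in the control library and 554 in the SOX2-labelled library, the widest difference of the 10 genes. The ratio was 14.5 (10.6 to 20.4), or 3.86 on the log2 scale, at percentile 99.9. SNAR genes are near-identical copies, and 0 of the 27 other family members searched for were listed in the table. Tags of the whole family may therefore have been counted under SNAR-E, and its value is uncertain as that of a single gene. The ratio also covers only the SNAR-E RNA that oligo(dT) selection kept. Whether it follows the total amount of this short RNA was not tested.

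Of the 4 other noncoding genes, 3 (MALAT1 excepted) had at least 2-fold and 2 (NEAT1 and SNAR-E) at least 3-fold more tags in the SOX2-labelled library, where 10.4% and 3.73% of all genes with at least 20 tags did. Their summed tags were 3645 in the control library and 9637 in the SOX2-labelled library, a ratio of 2.91 (2.80 to 3.02). NEAT1 gave 70.4% and 80.9% of them, and without it the sums were 1078 and 1844 with a ratio of 1.88 (1.75 to 2.03). The log2 differences of the 4 genes ran from 0.40 to 3.86 with a median of 1.49, and the intervals of 5 of their 6 pairs did not overlap.

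Further noncoding hosts were read from the annotation rather than from a list of names. In this class a host is a gene whose coordinates enclose a RefSeq snoRNA gene on either strand. Whether the snoRNA lies in an intron of that gene was not read. Leaving out the members, 15 listed long noncoding RNA (lncRNA) genes held a RefSeq snoRNA gene within their coordinates, and 10 of them had at least 20 tags. All 10 were below 0 on the log2 scale, 7 of them at least 2-fold, with a median of −1.28. Over the 10045 genes, 5536 were below 0 and 13.0% were at least 2-fold lower. By Fisher's exact test, adjusted by Benjamini and Hochberg over all 13137 genes, at FDR 0.001, 8 of the 15 were lower and 1 higher, where 12.2% of all genes were lower and 9.53% higher. These shares over all genes are not matched for tag depth, on which the number of calls depends. When a spread between cultures was assumed (biological coefficient of variation 0.2, exact test of edgeR), 1 of the 15, ZFAS1, still passed FDR 0.001. The 1 higher gene, PWAR5 of the Prader-Willi region, had 0 tags in the control library and 12 in the SOX2-labelled library. The class was drawn up after values of these libraries had been seen, and several of these genes would also be found by name.

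ZFAS1, host of 3 snoRNAs and antisense to ZNFX1, had 905 tags in the control library and 173 in the SOX2-labelled library, the lowest log2 value of the class at −2.25 (adjusted p = 2.07e-103, Fisher's exact test). SNHG32, listed as C6orf48, had 817 and 199 tags (−1.90). SNHG17, host of 5 snoRNAs, had 716 and 212 (−1.62). MIR31HG, which also carries the microRNA miR-31, had 81 and 17 (−2.11). The log2 values of these 4 genes, all past FDR 0.001, ran from −2.25 to −1.62, against −2.04 to −1.73 for the 5 host genes above other than SNHG5.

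SNHG3 with 182 and 66 tags (−1.33) and SNHG15 with 180 and 73 (−1.16) were also lower. SNHG6 had 675 and 314 tags (−0.97), and SNHG29, with the most tags of these genes, had 4101 and 2453 (−0.60), both past FDR 0.001 by Fisher's exact test. SNHG11 with 26 and 10 tags and DANCR with 105 and 69 tags did not pass it (adjusted p = 0.0508 and 0.0942). SNHG29, DANCR and SNHG5 had the smallest differences of the 16 noncoding hosts with at least 20 tags.

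**Figure D2:**
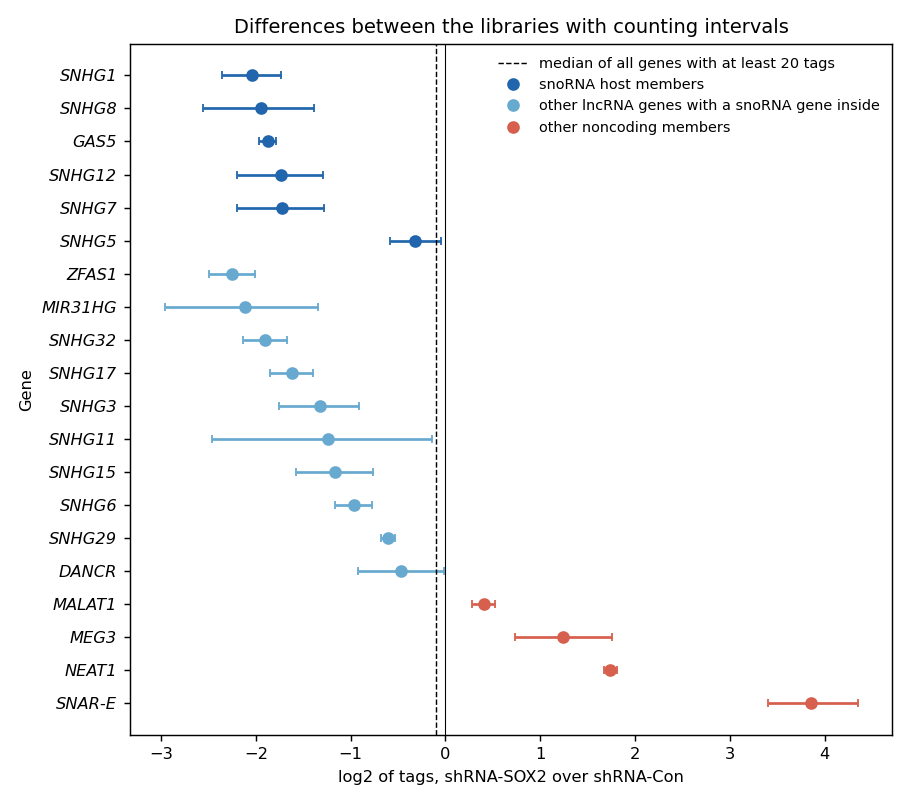
Log2 ratio of tags (SOX2-labelled over control library) with 95% counting intervals for the 6 host genes (dark blue), the 10 other lncRNA genes that hold a snoRNA gene and have at least 20 tags (light blue) and the other 4 noncoding genes (red). The dashed line is the median of all genes, −0.10. The points of both sets of hosts lie to the left of it and those of the other 4 genes to the right. The intervals of SNHG5 and DANCR cross the line.

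By contrast, lncRNA genes without a snoRNA gene inside lay on both sides of 0. Of 298 such genes listed, 108 had at least 20 tags, of which 34 were below 0 and 74 above, with a median of 0.51. At least 2-fold lower were 8 and at least 2-fold higher 31. That was 7.41% and 28.7% of the 108, against 13.0% and 10.4% of all genes with at least 20 tags. At FDR 0.001 of Fisher's exact test 5 were lower and 17 higher of the 298. Both were smaller shares than the 12.2% lower and 9.53% higher over all genes, which are not matched for tag depth. With the assumed spread, 0 of the 298 were lower and 2 higher, LINC00663 and LINC00839. At an unadjusted p under 0.05 in that test, 11 of the 298 were lower and 27 higher. The 108 genes had fewer tags than the hosts, with a median of 50.5 tags in the libraries together against 590.5. Restricted to at least 100 tags, the 26 genes without a snoRNA gene had a median of 0.39 (9 below 0) and the 8 genes with one a median of −1.24 (8 below 0). These medians describe 2 libraries, and the difference between the classes was not tested.

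Among lncRNAs without a snoRNA gene, LINC00663 had 115 tags in the control library and 472 in the SOX2-labelled library (2.18, adjusted p = 3.62e-58, Fisher's exact test). KCNQ1OT1, the antisense RNA that silences an imprinted domain on chromosome 11, had 7 and 36 tags (2.50). NORAD, a cytoplasmic RNA that binds Pumilio proteins, had 479 and 746 (0.78). DLEU1 with 57 and 15 tags (−1.79) and OIP5-AS1 with 98 and 39 (−1.19) were lower, and all of these passed FDR 0.001. LINC00663 and OIP5-AS1 were chosen after their values were seen. SNHG10 (7 and 30 tags, 2.24, adjusted p = 0.00023) and SNHG20 (14 and 24, adjusted p = 0.151), hosts of small Cajal body RNAs that RefSeq does not type as snoRNAs, fell in this class. They were on the opposite side of 0 from the snoRNA hosts.

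Of 33 further genes listed by name as noncoding hosts, 13 were in the table, all with at least 20 tags. On the log2 scale 10 were below 0, 6 were at least 2-fold lower and 1 at least 2-fold higher, with a median of −0.97, and 7 were lower and 1 higher at FDR 0.001 of Fisher's exact test, against 1 lower and 0 higher with the assumed spread. The list overlaps the class read from the annotation, but SNHG10, SNHG20, LINC-PINT and MIR17HG in it hold no RefSeq snoRNA gene. The 3 genes above 0 were SNHG10, SNHG20 and MIR17HG. For this list and the next, 13.0% of all genes with at least 20 tags were at least 2-fold lower and 10.4% higher. Fisher's exact test called 12.2% of all genes lower and 9.53% higher, shares not matched for tag depth. Of 66 lncRNA genes in a further list by name, 34 were in the table and 21 had at least 20 tags. This list is not free of hosts, since it holds SNHG29 and MIR31HG, each with a snoRNA gene inside, and SNHG20, and it shares SNHG29 and SNHG20 with the list of hosts. Their median was 0.03, with 5 at least 2-fold lower and 1 at least 2-fold higher, and 6 lower and 2 higher at FDR 0.001 of Fisher's exact test. SNHG29 and MIR31HG were among those 6, and MIR31HG among the 5. This median was −0.08 after scaling by clean tags, so its sign depends on the scaling.

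Most human snoRNAs sit in protein-coding genes, ribosomal protein genes foremost. Of the 25 listed hosts that encode ribosomal proteins, 24 had at least 20 tags, and 20 of these were below 0, 4 at least 2-fold lower and 1 at least 2-fold higher, with a median of −0.36. Fisher's exact test at FDR 0.001 called 15 lower and 4 higher. With the assumed spread, edgeR's exact test called 0 (6 lower and 1 higher at an unadjusted p under 0.05). Over all genes with at least 20 tags, 13.0% were at least 2-fold lower and 10.4% at least 2-fold higher. Fisher's exact test called 12.2% of all genes lower and 9.53% higher, shares not matched for the tag depth of these genes. RPS13 had 1946 and 664 tags (−1.41), RPS20 had 1551 and 561 (−1.33) and RPL4 had 6104 and 2638 (−1.07), while RPL39 had 692 and 1938 (1.62) and RPL32 had 5327 and 7257 (0.58), all 5 past FDR 0.001. By annotation, ribosomal protein genes with a snoRNA gene inside had a median of −0.40 (25 genes with at least 20 tags), and those without one −0.44 (50 genes). The protein-coding hosts thus lay closer to all genes than the noncoding hosts did.

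Of the hosts that encode other proteins, 40 of 44 were in the table and 39 had at least 20 tags, with a median of −0.38, 4 at least 2-fold lower and 1 at least 2-fold higher. The 2-fold counts were 10.3% and 2.56% of the 39, against 13.0% and 10.4% of all genes with at least 20 tags. At FDR 0.001 of Fisher's exact test, 14 were lower and 5 higher. With the assumed spread 0 passed (4 lower and 2 higher at an unadjusted p under 0.05). Fisher's exact test called 12.2% of all genes lower and 9.53% higher, shares not matched for tag depth. HSPA9, the mitochondrial Hsp70, had 1981 and 510 tags (−1.82), near the value of GAS5, and IPO7, an import receptor for ribosomal proteins, had 578 and 236 (−1.15). EIF4A2 (403 and 755, 1.04), HSPA8 (622 and 1095, 0.95) and TPT1 (4336 and 6791, 0.79) were higher, all 5 past FDR 0.001. Over every other coding gene with a snoRNA gene inside, 332 with at least 20 tags had a median of −0.16. Rows of snoRNA genes themselves, 22 in the table, held 143 tags in the control library and 79 in the SOX2-labelled library, and 4 of them had at least 20 tags.

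**Figure D3:**
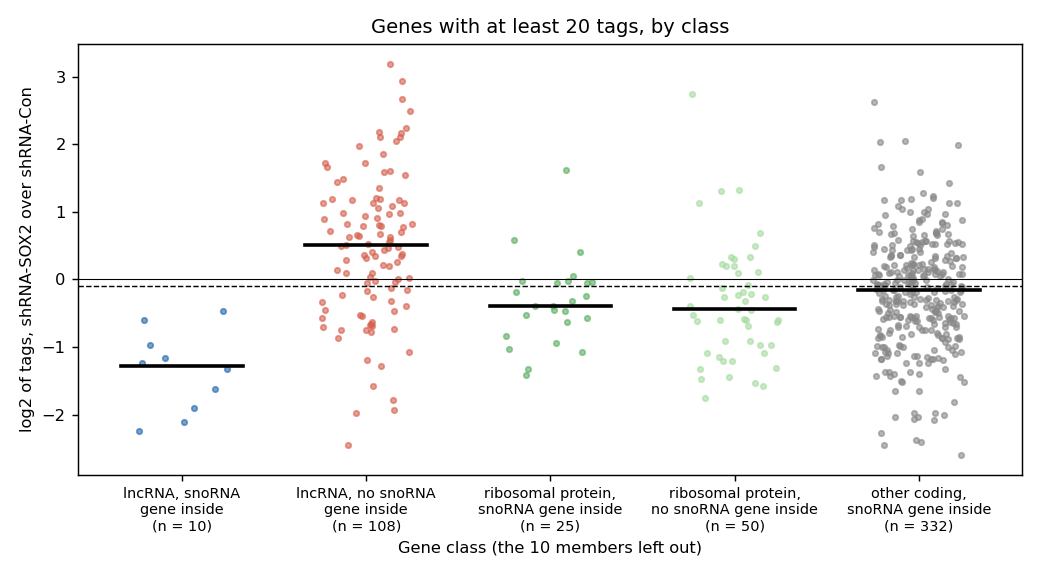
Log2 ratio of tags (SOX2-labelled over control library), with 1 point for each gene of at least 20 tags, the 10 members left out, by class, with the class median as a black bar and the median of all genes as a dashed line. The medians are −1.28 for lncRNAs with a snoRNA gene inside and 0.51 for those without, −0.40 and −0.44 for ribosomal protein genes with and without one, and −0.16 for other coding genes with one.

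The proteins that build and guide snoRNA particles were listed next. Of 21 named, 20 were in the table, 16 of them below 0 and 4 at least 2-fold lower, with a median of −0.64, and Fisher's exact test at FDR 0.001 called 10 lower and 1 higher, where 12.2% and 9.53% of all genes were called. With the assumed spread in edgeR's exact test 0 passed, and 5 were lower and 0 higher at an unadjusted p under 0.05. Of all genes with at least 20 tags, 13.0% were at least 2-fold lower. All 20 listed genes had at least 20 tags, as 10045 of the 13137 genes did, so the shares over all genes are not matched for depth. GAR1, of the H/ACA core, had 102 and 28 tags (−1.73). FBL, the methyltransferase of C/D particles, had 610 and 218 (−1.35), and NUFIP1, an assembly factor, had 62 and 20 (−1.49), all past FDR 0.001. NOP10 of the H/ACA core was higher with 563 and 699 tags (0.45, adjusted p = 3.23e-07, Fisher's exact test). NOP58 of the C/D core had 182 and 234 (0.50) and did not pass FDR 0.001 (adjusted p = 0.00202).

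Nonsense-mediated decay, which degrades several host RNAs, was covered by 20 listed factors, 19 with at least 20 tags. They had a median of −0.30, 2 at least 2-fold lower and 1 at least 2-fold higher, with 4 lower and 2 higher at FDR 0.001 of Fisher's exact test and 0 with the assumed spread (2 lower and 1 higher at an unadjusted p under 0.05). CASC3 (185 and 62 tags, −1.44) and SMG5 (111 and 39, −1.37) were lower, and PNRC2 (96 and 180, 1.05) and EIF4A3 (343 and 463, 0.57) higher. The 10 regulators of TOP messenger RNAs and growth had a median of −0.28, 2 at least 2-fold lower and 0 at least 2-fold higher, with 4 lower and 1 higher at FDR 0.001, of which EIF4EBP1 passed with the assumed spread. EIF4EBP1, a repressor of cap-dependent translation, had 479 and 105 tags (−2.05). LARP1, which binds TOP tracts, had 919 and 341 (−1.29), and the kinase MTOR had 118 and 182 (0.76), all 3 past FDR 0.001. At least 2-fold lower were 10.5% of the decay factors and 20% of the regulators, against 13.0% of all genes with at least 20 tags. At least 2-fold higher were 5.26% and 0%, against 10.4%. Fisher's exact test called 12.2% of all genes lower and 9.53% higher, shares not matched for tag depth. Members of each group thus stood on both sides, and whether they bear on the host RNAs was not tested.

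The 19 paraspeckle proteins, partners of NEAT1, were spread about 0, with 12 below and 7 above, a median of −0.26, and 2 at least 2-fold lower and 2 at least 2-fold higher. The 2-fold counts were 10.5% in each direction, against 13.0% lower and 10.4% higher over all genes with at least 20 tags. Fisher's exact test at FDR 0.001 called 5 lower and 6 higher. With the assumed spread 0 were called (2 lower and 3 higher at an unadjusted p under 0.05). Of all genes, Fisher's exact test called 12.2% lower and 9.53% higher, shares not matched for tag depth. RBM14, needed for paraspeckle assembly, had 42 and 110 tags (1.53), and MATR3 had 337 and 597 (0.96). NUDT21, a cleavage factor that sets the polyadenylation site, had 280 and 66 (−1.95), and DAZAP1 had 282 and 104 (−1.30), all 4 past FDR 0.001. The 15 proteins of nuclear speckles or bound by MALAT1 had a median of −0.15, 0 at least 2-fold in either direction, and 6 lower and 0 higher at FDR 0.001, with 0 called with the assumed spread, also at an unadjusted p under 0.05. The splicing factors SRSF1 (813 and 454 tags, −0.70) and SRSF3 (1179 and 684, −0.65) were among the 6. Where 0 were called higher, SRSF6 had the largest increase, with 259 and 308 tags (adjusted p = 0.0052, Fisher's exact test).

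Positions beside the 10 genes were read from GRCh38.p14, taking the nearest listed gene on each side, of which those below are given. The neighbours of SNHG1 were lower, SLC3A2 at 224 bases with 1815 and 766 tags (−1.11, adjusted p = 8.38e-75, Fisher's exact test) and WDR74 at 10169 bases with 230 and 89 tags (−1.23). SLC3A2 encodes the heavy chain of amino acid transporters. TAF12 at 19867 bases from SNHG12 had 51 and 10 tags (−2.21), and all 3 passed FDR 0.001. Beside GAS5, RC3H1 had 32 and 27 tags (−0.11, adjusted p = 0.88, Fisher's exact test) and did not pass FDR 0.001. SYNCRIP beside SNHG5 had 599 and 526 tags.

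FRMD8, 9273 bases from NEAT1, had 123 tags in the control library and 162 in the SOX2-labelled library (0.54, adjusted p = 0.00721, Fisher's exact test). Beside SNAR-E, SLC1A5, a glutamine transporter, was lower with 1101 and 582 tags (−0.78), and AP2S1 had 179 and 145 (−0.17, adjusted p = 0.457). DIPK1B overlaps SNHG7 (26 and 11 tags) and TRNAU1AP overlaps SNHG12 (29 and 22 tags). Whether the counting used strand is not given in the sources used here, and tags of overlapping genes may then be shared. BEGAIN beside MEG3 had 13 and 18 tags, and the neighbours of SNHG8 had 10 or fewer tags in each library.

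The RefSeq promoter windows, 250 bases before to 50 after the start, were searched on both strands for the E-box CACGTG and for ACAATG and ACAAAG, 2 forms of the core that SOX proteins recognise. CACGTG was found in 1 of the 6 hosts (SNHG7) and in 10.1% of the listed genes. ACAATG was found in 0 of 6 hosts against 6.12%, and ACAAAG in 1 host (SNHG1), in MALAT1, and in 10.9% of the listed genes. Windows of 8 of the 10 genes were available. For GAS5 and SNHG1 the RefSeq starts are chr1 base 173869045 and chr11 base 62855885. The TOP starts printed above for these genes (173867989 and 62855479) lie outside the windows searched. These matches describe letters within the windows and nothing about binding.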

How the data were processed

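Digital gene expression tags were counted in 1 library of A549 cells labelled shRNA-SOX2 and 1 labelled shRNA-Con, each from 4 µg of total RNA with oligo(dT) selection, at the Beijing Genomics Institute. The authors deposited tag counts per Entrez Gene ID, not normalized, and TPM values that scale the counts by the clean tags of the library. The columns were read as shRNA-Con by its initials and as shRNA-SOX2 for the remaining one. The submitters' processing notes name hg19, and the aligner and annotation are not given in the sources used here. The deposited log2 ratios, p-values and FDR are the authors' own comparison and were not used. No column belonged to another sample.

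Each gene's tags were divided by its library's summed gene tags, and ratios set the SOX2-labelled library over the control, with 95% Clopper-Pearson intervals. For log2 differences, a count under 3 tags was set to 3. A count of 0 allows a share of up to 0.000143% for the SOX2-labelled library and 0.000130% for the control library. Medians and fold counts used genes whose tags summed to at least 20 over both libraries. Genes other than the 10 members were tested by Fisher's exact test (two-sided), with Benjamini-Hochberg adjustment of p-values over 13137 genes and an FDR of 0.001. Quasi-likelihood tests in edgeR need replicates and were not possible. Simulated data were drawn for the 13137 genes of this comparison with counting error only. On them the test called 85.1% of 47 genes at 0.25-fold, 43.4% of 53 at 0.5-fold, 53.7% of 54 at 2-fold, 84.8% of 46 at 4-fold and 0 of 12937 genes left alone. Genes of few tags with a 2-fold difference are therefore often missed. The simulation held no spread between cultures, so it cannot show how many calls such a spread would cause.

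Members and lists were chosen with earlier results of these data known, and the classes by RefSeq snoRNA position after values had been seen. The lists were other noncoding snoRNA hosts, ribosomal and other coding hosts, other lncRNAs, SNAR genes, snoRNA particle proteins, nonsense-mediated decay factors, TOP and growth regulators, paraspeckle proteins, speckle proteins and the DLK1-MEG3 region. Genes named were the members, SOX2, the nearest listed gene on each side, and the 3 largest increases and decreases of each list, of which some are given and a few are not reported here. Entrez IDs matched RefSeq GRCh38.p14 for 13086 of 13137 genes, and a snoRNA gene counted as inside without regard to strand. Sequences are from RefSeq GRCh38.p14 and GENCODE 29. Python 3.11.15, scipy 1.17.1, R 4.3.3, edgeR 4.0.16 and DESeq2 1.42.0 were used, the latter pair for scaling factors and an exact test with an assumed spread. Alternatives were TMM factors, median ratio, clean tags, a minimum of 10 or 100 tags, 0.5 added to counts, that exact test and leaving out the member with most tags.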

Additional observations from a re-analysis of the deposited data

How the results depend on the processing

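No alternative turned the direction of a member or a sum, the one sign that turned was the median of the other lncRNA list (0.03, and −0.08 with clean tags). Values of single members that moved past their counting interval were those of GAS5 with clean tags (−1.99) and of NEAT1 under 3 scalings (1.63 to 1.81). Scaling moved every log2 difference by the same amount, 0.07 with TMM factors or median ratio and −0.11 with clean tags. The upper end of the SNHG5 interval with gene tags, −0.05 on the log2 scale, is closer to 0 than that shift of 0.07. Under TMM factors or median ratio the SNHG5 value stayed below 0 (−0.25 with each), but its counting interval no longer excludes 0. The summed log2 ratio of the hosts (−1.77) was −1.88 with clean tags and −1.39 without GAS5. That of the other noncoding genes (1.54) was 1.61 with TMM factors, 1.61 with median ratio, 1.43 with clean tags and 0.91 without NEAT1. Requiring at least 100 tags, 713 genes were at least 2-fold lower and 471 higher, against 1306 and 1040, since fewer genes entered. Of the genes past FDR 0.001, 56.1% were lower with gene tags, 49.4% with TMM factors, 49.7% with median ratio and 66.6% with clean tags. At an assumed biological coefficient of variation of 0.2, edgeR's exact test left 48 genes lower and 65 higher, against 1597 and 1252. At that spread 1 of the 15 other lncRNA hosts, ZFAS1, passed FDR 0.001, as did 2 of the 298 lncRNAs without a snoRNA gene, LINC00663 and LINC00839, and EIF4EBP1 alone of the genes in the lists that hold no lncRNA. The real spread between cultures is unknown. No paired analysis was possible because neither condition has a replicate, nor could one be left out.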
